A study of Rattus norvegicus with 2 samples.

Results

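The miR-26 family of the rat is described here in squamous cell carcinoma of the tongue and in normal tongue, as measured on 2 miRNA arrays. Its members were the probes whose gene name on the array was exactly rno-miR-26a or rno-miR-26b, which are 2 of the 350 rat miRNAs and 4 of the 938 miRNA probes. Each of the 4 probes was printed on 10 spots, so 40 of the 7000 miRNA spots of an array report on them. Per the labels, 40 male Sprague-Dawley rats of 6 to 7 weeks were divided into 20 that received the carcinogen 4NQO at 0.02 g/l and 20 that received distilled water, and tongue tissue was taken at the end of week 36. RNA of 7 carcinomas and 7 normal tongues was extracted, and 1 array is labelled with each kind of tissue. The sources used here do not say if the RNA on an array came from a single rat or from a pool. miR-21 and miR-31, known as raised in many carcinomas and chosen after their values were seen, had scaled log2 ratios of -3.26 and -3.93 on the tumour-labelled array over the normal-labelled array, while skeletal muscle miRNAs were higher on the tumour-labelled array. Whether the 2 labels are in place was not tested, and every direction below rests on them and would turn if they were exchanged. With 1 array per label there was no replicate check and no test between the labels, and each error given below describes only how far spots of 1 array differed.

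A miRNA guides the Argonaute protein to messenger RNAs, mainly through pairing of its seed, the bases 2 to 8 from its 5′ end, and it lowers the output of those messages. The miR-26 family is found throughout vertebrates, and its genes lie inside genes of the CTDSP family of small phosphatases, which act on RNA polymerase II and on other proteins. miR-26a is known for lowering Ezh2, the methyltransferase of the Polycomb repressive complex, for rising when myoblasts differentiate into muscle, and for being lowered in several human carcinomas.

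The mature strands are shown first because they explain both the family and the design of its probes. The seed is in capitals, and both sequences are from RefSeq, build GRCr8:
rno-miR-26a-5p: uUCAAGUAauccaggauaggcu
rno-miR-26b-5p: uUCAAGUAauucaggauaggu

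Both strands carry the same seed, and they were the only 2 of 693 mature rat miRNAs in the RefSeq table that do. Counted from 1 at the 5′ end, 19 of the 21 positions present in both strands are identical. The remaining 2 positions carry the substitutions C11U and C21U, given from miR-26a to miR-26b, and miR-26a, with 22 bases, is longer by 1 base at its 3′ end.

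The hairpins from which they are cut lie on different chromosomes. Mir26a is at chr8:127633048-127633137 and Mir26b at chr9:83425709-83425793 of GRCr8, both on the plus strand. The RefSeq gene table places Mir26a within the bounds of Ctdspl and Mir26b within the bounds of Ctdsp1, and it does not say whether these stretches are exonic or intronic. The mature strand is in capitals:
Mir26a: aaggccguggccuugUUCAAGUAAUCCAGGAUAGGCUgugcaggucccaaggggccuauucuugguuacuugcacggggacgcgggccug
Mir26b: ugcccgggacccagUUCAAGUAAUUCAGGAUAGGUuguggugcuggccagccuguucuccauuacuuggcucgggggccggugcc

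The 4 probes are shown because how far they can tell the members apart bears on every value below. Each is complementary to the 3′ part or to all of its miRNA, and capitals mark the bases that pair with positions 11 and 21:
miR-26a 15-base probe: aGcctatcctgGatt
miR-26a 16-base probe: aGcctatcctgGatta
miR-26b 20-base probe: AcctatcctgAattacttga
miR-26b 21-base probe: AcctatcctgAattacttgaa

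The miR-26a probes pair with bases 8 to 22 and 7 to 22, so they cover 1 and 2 of the 7 seed bases. The miR-26b probes pair with bases 2 to 21 and 1 to 21 and cover the whole seed. Against the other member every probe has 2 mismatches, at positions 11 and 21. The 15-base probe of miR-26a pairs with miR-26b at 12 positions and its 16-base probe at 13, with a further base that overhangs. The 20-base probe of miR-26b pairs with miR-26a at 18 positions and its 21-base probe at 19. The longest unbroken pairing of a probe with the wrong member was 10 bases, and with any of the other 691 mature rat miRNAs it was 8 bases. How much signal of one member reached the probes of the other was not tested.

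Both members were well above background on both arrays, in all 40 of their spots on each. No spot was saturated. The feature extraction software marked 3 of these spots as outliers on the tumour-labelled array and 4 on the normal-labelled array, which left 37 and 36 spots. The signals below are processed intensities, already background-subtracted and not yet scaled between the arrays. For comparison, 672 negative control spots had a mean of 1.21 ± 7.28 (SD) intensity units on the tumour-labelled array and 2.64 ± 6.31 on the normal-labelled array.

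On the tumour-labelled array the 15-base probe of rno-miR-26a ran from 459 to 514 intensity units with a median of 493 (10 spots). On the normal-labelled array it ran from 130.2 to 139 with a median of 134 (8 spots). The spots of the 2 arrays did not overlap, and the tumour-labelled array was the brighter. The 16-base probe, longer by 1 base, was brighter on both arrays. It ran from 987 to 1064 with a median of 1023 (10 spots) on the tumour-labelled array, and from 259.6 to 288 with a median of 276 (9 spots) on the normal-labelled array. Its mean was 2.09-fold that of the 15-base probe on the tumour-labelled array and 2.07-fold on the normal-labelled array, gains that differed by less than their spot errors (log2 1.06 and 1.05, each with a spot SE of 0.02).

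The probes of rno-miR-26b were dimmer. On the tumour-labelled array the 20-base probe ran from 269 to 300.1 intensity units with a median of 282 (10 spots), and on the normal-labelled array from 70.5 to 81.3 with a median of 78.1 (10 spots). The 21-base probe ran from 351 to 358 with a median of 354 (7 spots) on the tumour-labelled array, and from 93.3 to 99.5 with a median of 94.6 (9 spots) on the normal-labelled array. Again no spot of one array reached the range of the other. The longer probe was 1.26-fold brighter than the shorter on the tumour-labelled array and 1.24-fold on the normal-labelled array. Probes differ in how much light they give for the same RNA, so a brighter probe does not mean a more abundant miRNA.

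**Figure D1:**
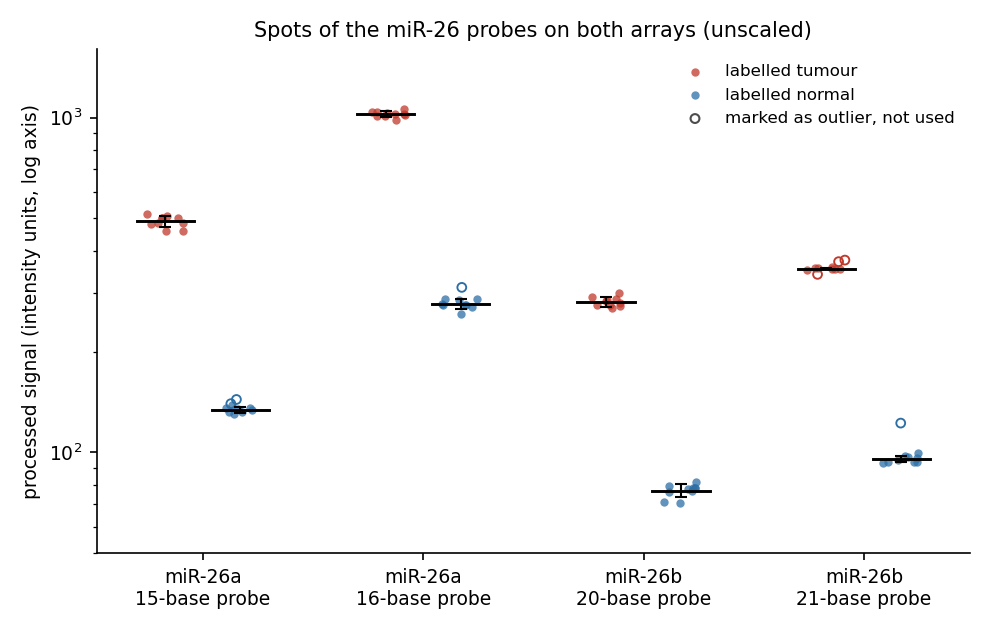
Processed signal in intensity units (log axis) of every spot of the 4 miR-26 probes on the tumour-labelled array (red) and the normal-labelled array (blue), before scaling. Black bars are the mean ± SD of the spots used and open circles are spots marked as outliers and not used. For each probe the red spots lie above all blue spots, from 269 to 1064 units against 70.5 to 288 over the 4 probes.

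All 4 probes gave nearly the same ratio between the arrays. Before scaling, the tumour-labelled array was 3.65-fold brighter in the 15-base and 3.69-fold in the 16-base probe of miR-26a, and 3.67-fold in the 20-base and 3.71-fold in the 21-base probe of miR-26b. Since the arrays share 1 layout, each spot can also be set against the spot at its own position. In all 40 positions the tumour-labelled array was brighter, by 2.87-fold to 4.25-fold, and by 3.37-fold to 4.25-fold in the 33 positions with no marked spot on either array. The median was 3.65-fold in the upper part of the array (16 positions) and 3.67-fold in the lower part (17 positions). The deposited total signal per miRNA, the software's sum over probes, was 1005 intensity units for miR-26a and 422 for miR-26b on the tumour-labelled array, and 273 and 114 on the normal-labelled array, ratios of 3.68 and 3.69.

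The miRNA probes differed in brightness between the arrays. Each array was therefore scaled by the 75th percentile of the 140 probes that both arrays detected, 525.6 and 277.5 intensity units. The positive control features used here were the 19 with names starting hur_ or mr_ that both arrays detected. They differed little, with a median log2 ratio of 0.07 (-0.29 to 0.34). Whether the difference in the miRNA probes came from the arrays or from the RNA on them was not tested. Detection required that over 50% of a probe's spots stood well above background. This scaling takes a factor of 1.89, or 0.92 on the log2 scale, off every ratio of the tumour-labelled array over the normal-labelled array. After scaling, miR-26a had a level of 1.35 on the tumour-labelled array and 0.695 on the normal-labelled array, in units of the array's own 75th percentile. That is 1.94-fold higher on the tumour-labelled array (log2 ratio 0.96, spot SE 0.01). miR-26b had levels of 0.601 and 0.309 and was 1.95-fold higher (log2 ratio 0.96, spot SE 0.01). Both ratios were many times their spot SE, which holds for the 2 arrays and says nothing of differences between animals.

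With this scaling neither member reached the 2-fold size rule used here to call a miRNA higher or lower, although both lay just under it. Of the 85 miRNAs measured on both arrays 11, or 12.9%, passed this rule upward on the tumour-labelled array, and 0 of the 2 members were among them. In the other direction 19, or 22.4%, passed it, again with 0 of the 2 members. The last miRNA inside the rule was miR-451, at 2.05-fold, and those just outside it were miR-26b, miR-26a and miR-206, at 1.95-fold, 1.94-fold and 1.88-fold.

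The side of the 2-fold line on which the members fell depended on the scaling. Without scaling both members were called, at 3.67-fold and 3.69-fold, when 32.9% of the 85 miRNAs were called higher. On the 19 positive control features used here both were called, at 3.49-fold and 3.51-fold, with 31.8% of all called higher. With the 75th percentile over all probes both were at least 2-fold higher, at 2.71-fold and 2.73-fold, with 27.1% of all. With the skeletal muscle miRNAs left out of the percentile both were called, at 2.41-fold and 2.42-fold, with 21.2% of all. With the median of the probes detected on both arrays they were at 2.02-fold and 2.03-fold, with 15.3% of all. Spots of odd number alone gave 2.01-fold and 2.03-fold, with 15.1% of 86 miRNAs. Quantile normalization called 1 of the 2, miR-26b at 2.08-fold, and put miR-26a at 1.97-fold, with 14.1% of all. In the other 9 of the 16 alternatives neither was called. Of these 9, the total gene signal and the deposited value table gave the same values and are not separate evidence. The direction was the same in all 16, and the lowest value of either member was 1.47-fold.

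**Figure D2:**
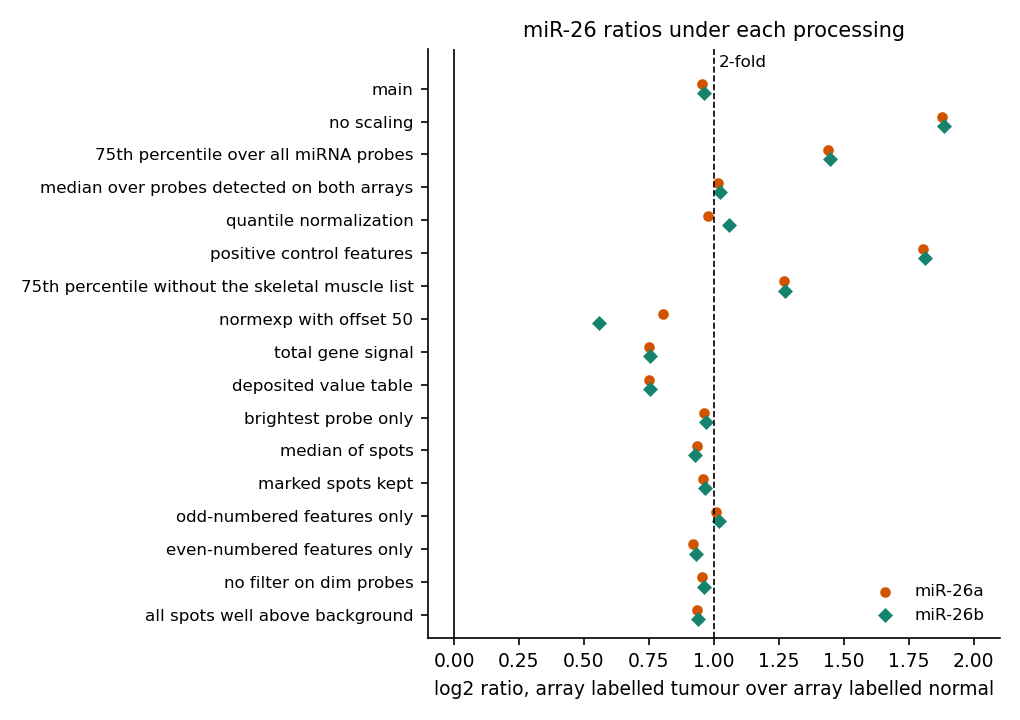
Log2 ratio of miR-26a (circles) and miR-26b (diamonds), tumour-labelled array over normal-labelled array, under the main processing and 16 alternatives; the dashed line is 2-fold. All values lie above 0, from 0.56 to 1.88, and the 2 members lie close together except with normexp background correction and its offset of 50, where they are at 0.80 and 0.56.

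Among the 85 miRNAs the members stood next to each other near the upper end. miR-26b had the 12th highest ratio and miR-26a the 13th. The median log2 ratio of the 85 was -0.46, the highest was 3.72 and the lowest -3.93, and 32 of the 85 were above 0. The miRNA nearest to each member in ratio was the other member. Next came miR-206, a miRNA of skeletal muscle, at a log2 ratio of 0.91 (spot SE 0.03), and miR-451, which is made in red blood cell precursors, at 1.04 (spot SE 0.03, 1 probe). This likeness is over 2 arrays only.

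**Figure D3:**
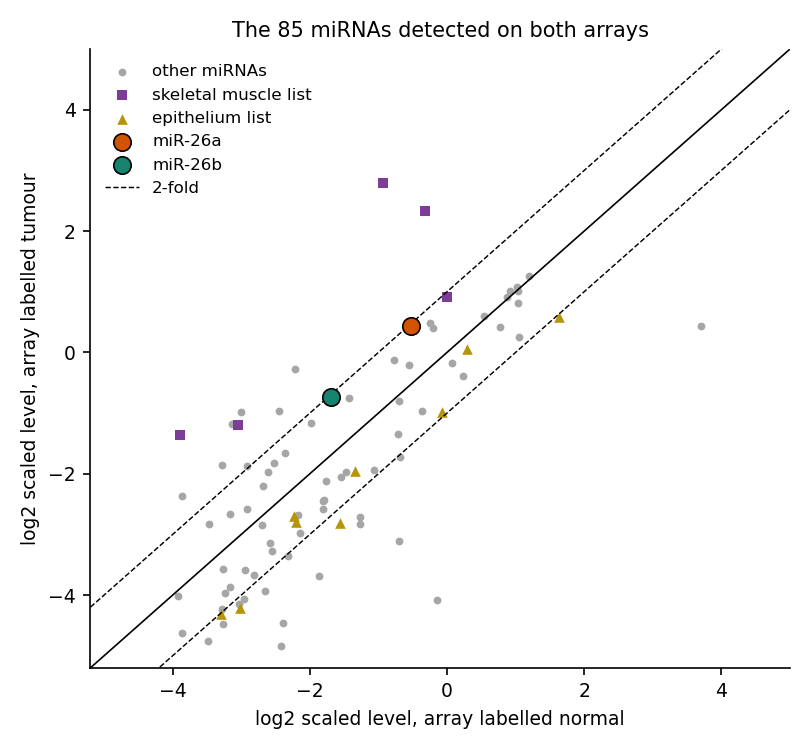
Log2 scaled level on the tumour-labelled array against that on the normal-labelled array for the 85 miRNAs detected on both, averaged over the probes that both arrays detected. The solid line marks equal levels and the dashed lines 2-fold; miR-26a and miR-26b lie together just inside the upper dashed line, at log2 ratios of 0.96.

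In the order of signal on an array, both members stood higher on the tumour-labelled array. miR-26a ranked 14th of 104 detected miRNAs on the tumour-labelled array and 22nd of 88 on the normal-labelled array. It lay between miR-21 and let-7i on the first and between miR-199a-3p and let-7d on the second. Of these 4 neighbours only miR-199a-3p differed from it by more than the combined spot SD, by 0.17 on the log2 scale against 0.07. miR-26b ranked 23rd on the tumour-labelled array, between miR-16 and miR-126, and 37th on the normal-labelled array, between miR-25 and miR-103. It differed by more than the combined spot SD from the neighbour above it on either array, by 0.34 from miR-16 and by 0.155 against an SD of 0.149 from miR-25, but not from those below. These ranks order signals and not abundances. As a share of the summed total signal of all miRNAs, miR-26a made up 2.16% on the tumour-labelled array and 1.07% on the normal-labelled array, and miR-26b 0.908% and 0.449%. Both shares were about 2-fold higher on the tumour-labelled array, at 2.01 and 2.02 times.

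The balance between the members differed between the arrays by less than the spot SE with the main processing. It differed by more than that SE with normexp background correction and with quantile normalization, at 0.25 and -0.079 on the log2 scale. The mean level of the miR-26a probes was 2.24-fold that of the miR-26b probes on the tumour-labelled array (log2 1.16, spot SE 0.01) and 2.25-fold on the normal-labelled array (log2 1.17, spot SE 0.01). Since the probes of the members differ in length and in pairing, this is a ratio of signals and not of molecules. Both arrays carry the same probes, and the change of this ratio between them was small. The log2 ratio of miR-26a to miR-26b was lower on the tumour-labelled array by a difference of -0.0071, with a spot SE of 0.020, and over the 4 combinations of a miR-26a and a miR-26b probe this difference ran from -0.023 to 0.0091. Within each array the same combinations ran from 1.38-fold to 3.63-fold on the tumour-labelled array and from 1.41-fold to 3.61-fold on the normal-labelled array, so the choice of probe set the size of the ratio and left its change between arrays near 0. With the software's total signals the ratio was 2.38 and 2.39.

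This agreement was set beside other miRNAs that share a seed. Of the 85 measured miRNAs 78 could be matched to a mature RefSeq strand through their probes, and 41 of them formed 59 pairs with a common seed, over 14 seeds. Families with many members give many pairs, so the pairs are not independent. The difference between the members' log2 ratios was smaller for miR-26a and miR-26b than for any of the other 58 pairs, whose median was 0.34. Next were miR-17 and miR-93, from the paralogous clusters that promote cell proliferation, at 0.01 (spot SE 0.09), miR-30a and miR-30e at 0.01 (spot SE 0.06), and miR-23a and miR-23b at 0.02 (spot SE 0.02). These differences lay within their spot SEs and so the order among the 4 pairs is not resolved. Some later pairs also lay within theirs, such as let-7i and miR-98 at 0.048 (spot SE 0.054) and miR-17 and miR-20a at 0.066 (spot SE 0.083). miR-17, miR-93, miR-30a and miR-30e were each measured with 1 probe. The pairs were compared with the main processing only. The miR-26 members differed by 0.25 under normexp and by -0.079 under quantile normalization.

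Other pairs moved apart. The largest difference was that of miR-1 and miR-206, which share a seed and are both expressed in muscle, at 2.82 on the log2 scale. It was followed by miR-15b and miR-195 at 1.75 and by miR-15b and miR-322 at 1.67, and 10 of the 58 other pairs differed by at least 2-fold. Pairs with strands as alike as those of miR-26 also differed: 21 pairs including miR-26 differ at 1 or 2 bases, and without miR-26 they ran from 0.01 to 1.33 with a median of 0.23. One of these, named after its values were seen, is miR-29a and miR-29c, which differ at 1 base and by 1.29 on the log2 scale (spot SE 0.04).

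**Figure D4:**
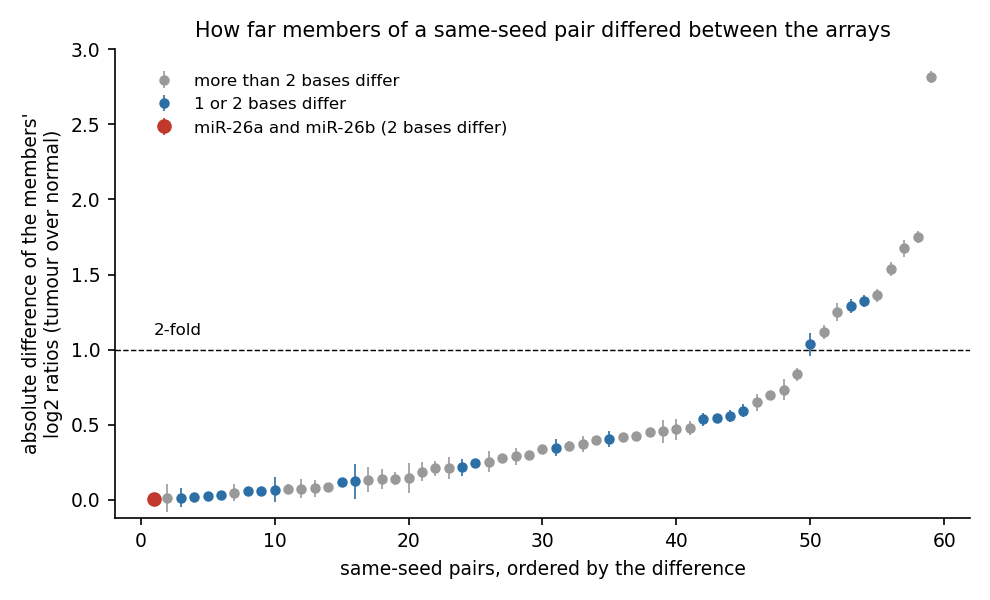
Absolute difference of the 2 members' log2 ratios (tumour over normal) for the 59 same-seed pairs measured on both arrays, ordered from the smallest; bars are the spot SE and the dashed line is 2-fold. The miR-26 pair (red) is first, and pairs whose strands differ at 1 or 2 bases (blue) are spread from 0.01 to 1.33.

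The markers of cell types that tongue can hold also differed between the arrays, and their part in the miR-26 values was not tested. The skeletal muscle list had 5 of its 7 members measured on both arrays, and miR-208 and miR-499 were detected on neither. Its summed scaled level was 14.4 on the tumour-labelled array and 2.51 on the normal-labelled array. Summed levels, here and below, use the probes detected on each array, so the sums of a list need not rest on the same probes. The log2 ratios use only probes detected on both. All 5 had ratios above 0, with a median of 2.53: miR-1 was at 3.72, miR-133a at 2.53 (1 probe), miR-133b at 2.66 and miR-206 at 0.91. The miR-26 ratios of 0.96 thus lay below the list's median and near its lowest member. Without scaling the list's median was 3.45, against 1.88 for both members of miR-26.

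Epithelial markers lay on the other side of the members. Of 10, 9 were measured and 0 were above 0, with a median of -0.90 and a range of -1.26 to -0.24, among them miR-200a at -0.46, miR-200b at -0.61, miR-200c at -0.90 and miR-141 at -1.26. Their summed level was 3.77 on the tumour-labelled array and 6.53 on the normal-labelled array, and each was detected on the normal-labelled array. Without scaling the median was 0.02, so the direction of this list depended on the scaling. Of the 6 leukocyte markers 5 were on the array and 4 were measured: miR-142-3p at -1.82, miR-223 at -2.41, miR-150 at 1.43 and miR-146a at -1.04, with summed levels of 0.410 and 1.09. miR-142-5p was detected on neither array. The stromal list, with 4 of 5 measured, had a median of -1.02 (-0.10 without scaling) and summed levels of 1.26 and 1.86, and miR-145 was detected on neither array. In it miR-143 stood at 0.82, near the miR-26 members, while miR-199a-5p was at -1.56, miR-199a-3p at -0.60 and miR-214 at -1.44. The red blood cell list rested on miR-451, with levels of 0.177 and 0.133 over the probes detected on each array, and miR-144 was detected on neither. The endothelial list rested on miR-126, at a log2 ratio of 0.68 and levels of 0.591 and 0.370, and miR-126* was detected on neither. In bulk tissue fewer cells of a type and less RNA per cell cannot be told apart.

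**Figure D5:**
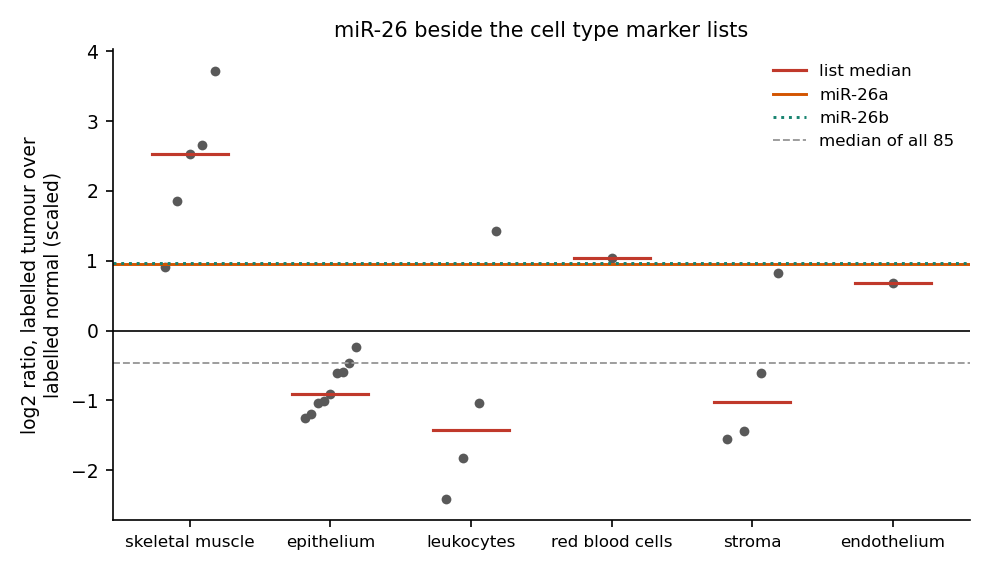
Log2 ratios (tumour-labelled array over normal-labelled array, scaled) of the measured members of 6 cell type marker lists (points, with the list median in red), with miR-26a and miR-26b as horizontal lines at 0.96. The lines lie below 4 of the 5 skeletal muscle markers and above all 9 epithelial markers.

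Beside miR-26, other miRNAs reported to target Ezh2 did not move as a group. Of the 12 on the list, with miR-26a and miR-26b among them, 7 were measured. Of these 4 lay above 0, 0 of them by 2-fold or more, and 1 was lower by over 2-fold. Among the 5 other than miR-26, 2 lay above 0, 0 of them by 2-fold or more, and 1 was lower by over 2-fold. Of all 85 miRNAs 32 lay above 0, 12.9% were called higher and 22.4% were called lower. The median of the list was 0.11, and -0.30 over the 5 members other than miR-26, against -0.46 over all 85. miR-214 was at -1.44 (spot SE 0.03) and miR-98, of the let-7 family, at -0.30 (spot SE 0.05). miR-101a and miR-101b, named after their values were seen, passed detection only on the tumour-labelled array, and 3 members passed it on neither. Detection was read before scaling. Of all 350 miRNAs, 104 passed it on the tumour-labelled array and 88 on the normal-labelled array, and 85 were measured on both.

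Of the 13 miRNAs listed as rising in muscle differentiation 11 were measured and 8 had ratios above 0. The median was 0.96, which is the value of miR-26a itself, and 1.38 without it. The 2-fold rule was passed upward by 5 of the 11 and downward by 1, beside 12.9% and 22.4% of all 85, of which 32 lay above 0. This list shares miR-1, miR-133a, miR-133b, miR-206 and miR-378 with the skeletal muscle list. Of the 20 miRNAs listed as often lowered in carcinoma 16 were measured, 13 lay above 0, 2 of them by 2-fold or more, and 0 were lower by 2-fold. The 2 of 16 are near the 12.9% of all 85 that were called higher, while 22.4% of the 85 were called lower and 32 of the 85 lay above 0. Its median was 0.68, and 0.50 over the 14 members other than miR-26. let-7a stood at 0.11 (spot SE 0.02) and let-7b at -0.01 (spot SE 0.02), both below the miR-26 members. Both of these medians and that of the Ezh2 list contain the scaling, and without it they were 1.88, 1.60 and 1.03.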

How the data were processed

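Cy3-labelled RNA was hybridised to 1-colour Agilent miRNA arrays, 1 per label, on 1 slide. Per the file headers, Feature Extraction (Agilent, version 10.5.1.1) made the deposited intensity of each spot by subtracting background, with no step between arrays. The deposited value table holds that software's total gene signal (relative tolerance 1e-06) for all 208 and 201 features at or above 1 and 1 for the other 187 and 194; its column medians were 1.70 and 1.32. Outlier, saturation and detection marks were used as deposited.

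Unmarked spots of a probe were averaged on the linear scale (4 to 20 spots over all probes), scaled as described, and put on the log2 scale. For each of the 85 of 350 miRNAs with a probe that both arrays detected, log2 ratios were averaged over such probes. A spot SE combines the spots of both arrays by the delta method. The number of arrays limits the precision. Calls are a rule of 2-fold size, with no test. Analyses used Python 3.11.15, pandas 2.3.3 and, for normexp, limma 3.58.1 in R 4.3.3. The steps were run on simulated arrays with known changes, made from the normal-labelled array without outlier marks. Errors there were taken after removing the shift left by the scaling, so the simulation did not check the scaling. Named miRNAs are the members, the 3 nearest in ratio, the neighbours in rank, the 3 widest and 3 nearest same-seed pairs, and up to 4 measured members per list in list order. miRNAs were matched to RefSeq strands through their probes, allowing up to 2 unmatched bases at the 3′ end. The array's grid names build rn4, while sequences and coordinates are of GRCr8. The members, lists and alternatives were chosen with earlier results of these data known.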

Additional observations from a re-analysis of the deposited data

How the results depend on the processing

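With 1 array per label no setting left out a replicate, and no paired analysis was possible because each label has 1 array. Of 224 values recomputed over 16 alternatives, 73 moved by more than the spot SD (counts: by over 1.5 times). A change of sign was looked for only in log2 values of at least 1 in size, and 0 were found. With the main processing the members' ratios, their difference and the list medians lay below 1 and could not be counted. The median of the Ezh2 list did change sign, as given below. So did the difference between the members, from -0.0071 to 0.0075 with the median of spots and to 0.25 with normexp. Scaling by 1 factor per array cannot move ranks or the log2 ratio of miR-26a to miR-26b.

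Scaling moved both members together. The log2 ratios of miR-26a and miR-26b were 1.88 and 1.88 without scaling, 1.80 and 1.81 on positive control features, 1.44 and 1.45 with a percentile taken from every probe, 1.27 and 1.28 without the muscle list, and 1.02 and 1.02 with the median of detected probes. Quantile normalization gave 1.06 for miR-26b and a log2 ratio of miR-26a to miR-26b of 1.24 on the normal-labelled array. After scaling, the total gene signal and the deposited value table gave 0.75 and 0.76 for miR-26a and miR-26b. Before scaling, the total gene signal was 3.68-fold and 3.69-fold higher, near the 3.67-fold and 3.69-fold of the probe means without scaling. The factor that scaling took off these totals was thus larger than in the main processing. The log2 ratios of miR-26a to miR-26b from these totals were 1.25 and 1.26 on the tumour- and normal-labelled arrays. The brightest probe alone gave log2 ratios of 1.53 and 1.54 for these.

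Normexp moved the members apart, to 0.80 and 0.56. It put the log2 ratio of miR-26a to miR-26b at 1.04 and 0.79 on the tumour- and normal-labelled arrays and its difference between the arrays at 0.25. Normexp replaced the background subtraction of the main processing and added an offset of 50. The members' probe means in the main processing were 76.9 to 1024 units. On the normal-labelled array the 20-base probe of miR-26b was at 76.9 with the main processing and at 139 with normexp. This rise was larger than the offset alone, and the parts of the offset and of the background correction in it were not tested.

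At least 2-fold higher and lower were 28 and 5 miRNAs without scaling, 23 and 7 with all probes, 27 and 5 on positive controls, 18 and 8 without the muscle list, and 3 and 8 with normexp. The medians of the lists for Ezh2, muscle differentiation and carcinoma were 1.03, 1.88 and 1.60 without scaling, 0.59, 1.44 and 1.16 with all probes, 0.96, 1.80 and 1.53 on positive controls, 0.42, 1.27 and 0.99 without the muscle list, -0.15, 0.81 and 0.21 with normexp, and -0.11, 0.75 and 0.44 with the total gene signal or the value table. With no filter the carcinoma list was at 0.53. The direction of the Ezh2 list thus depended on the processing.

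miR-26a ranked 17th on the tumour-labelled array with the brightest probe alone, and 26th on the normal-labelled array, where normexp, the total gene signal and the value table gave 24. miR-26b ranked 25th, 26th and 30th on the tumour-labelled array with normexp, the total gene signal or value table, and the brightest probe. On the normal-labelled array it ranked 38th with normexp or even spots, 41st with the brightest probe, 35th with no filter and 40th with all spots well above background. Where no value shows it, the cause was not tested.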

Other observations

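The other strand of the miR-26b hairpin, named miR-26b* on the array, was detected on neither array. It had 4 probes on 20 spots. On the tumour-labelled array 2 of the 20 spots were well above background and on the normal-labelled array 1 was. The unmarked spots ran from -5.04 to 17.3 intensity units with a median of 0.309 on the tumour-labelled array, and from -5.06 to 8.14 with a median of 1.45 on the normal-labelled array. The negative control spots had means of 1.21 and 2.64 units. The miR-26b strand of the same hairpin stood at 76.9 to 354 units (probe means).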
